A study of Mus musculus with 2 samples.

Results

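The levels of 10 signalling genes were followed through the bone marrow of Col1a1fspKO mice and their WT controls, namely Il1b, Il1rn, Il1f9, Prok2, Ccl3, Ccl4, Ccl6, Ccl9, Cxcl2 and Osm. These 10 inflammatory cytokine and chemokine genes were chosen by symbol, with earlier results of these data known, out of 13211 genes listed in either library. All 10 were listed in the Col1a1fspKO library and 9 in the WT library, where Cxcl2 was not listed. Col1a1fspKO mice carried the Fsp1-Cre transgene with both Col1a1 alleles floxed (Fsp1-Cre;Col1a1flox/flox), which removes the type I collagen α1 chain from Fsp1-lineage cells. The WT mice carried the same Col1a1flox/flox alleles but no Cre, so the groups shared the floxed alleles and differed in the transgene. Each genotype was 1 single-cell RNA-sequencing library made from the pooled marrow of 2 untreated mice aged 2 months, of unfractionated live cells. The mice within a pool cannot be told apart, so no test between genotypes is possible. Fold differences are given with 95% intervals that cover the counting of molecules and not the variation between mice.

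The genes encode secreted signals of innate immunity. Interleukin-1β (Il1b) starts inflammation through the IL-1 receptor, the IL-1 receptor antagonist (Il1rn) occupies that receptor without signalling, and IL-36γ (Il1f9) is a related cytokine with a receptor of its own. Prokineticin 2 (Prok2, also called Bv8) is a small secreted protein of neutrophils, and oncostatin M (Osm) is a cytokine of the IL-6 family that signals through gp130. Ccl3 and Ccl4 are chemokines that draw leukocytes to sites of inflammation, Ccl6 and Ccl9 are rodent chemokines that act on Ccr1, and Cxcl2 attracts neutrophils through Cxcr2. Bone marrow is where neutrophils and monocytes are made, and maturing neutrophils pass through stages marked by successive granule genes.

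The libraries held 1309 Col1a1fspKO and 1169 WT cells with 8647722 and 8624469 unique molecular identifiers (UMIs, each standing for 1 captured transcript), and median depths of 4954 and 5534 UMIs per cell. The lowest depth was 2540 UMIs in the Col1a1fspKO library and 2909 in the WT library, and 155 Col1a1fspKO cells lay below the WT minimum. Only 2 cell barcodes occurred in both libraries. RNA free in the droplets was widespread, since the neutrophil transcript S100a8 was seen in 98.4% of Col1a1fspKO and 99.1% of WT B cell-like cells. Col1a1 itself had 3 UMIs in the Col1a1fspKO library and none in the WT library, so the marrow cells could not be used to check the deletion. S100a4, which encodes Fsp1, was found in 97.8% of Col1a1fspKO and 99.3% of WT Monocyte-like cells, but in only 3.24% and 3.65% of Neutrophil-like cells.

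The cells fell into 15 clusters, clustered without the 10 genes and named from markers. Neutrophil-like cells numbered 525 in the Col1a1fspKO library and 438 in the WT library, and Monocyte-like cells numbered 267 and 276. The other classes were Basophil/eosinophil-like (9 and 18 cells), Myeloid progenitor-like (75 and 76), T/NK cell-like (58 and 32), Plasmacytoid dendritic-like (43 and 30), B cell-like (248 and 221) and Erythroid-like (84 and 78). Neutrophil-like cells comprised cluster 4 (led by Fcnb), cluster 2 (led by Orm1 and Ltf), cluster 1 (led by Mmp8 and Mmp9) and cluster 8 (led by Gm5483 and Retnlg). These genes mark, in that order, early to late stages of neutrophil maturation in the marrow. Cluster 8 stood apart between the libraries, with 88 Col1a1fspKO cells (6.72%, 95% exact binomial interval 5.43 to 8.22) and 25 WT cells (2.14%). It was also shallow, with median depths of 2912 and 3348 UMIs, and among cells above the WT minimum its shares were 3.90% (2.86 to 5.18) and 2.14% (1.39 to 3.14). For the 10 genes, ratios between the libraries over all cells and over Neutrophil-like cells are therefore also given without it where it moved them.

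The label of myeloid signals held for most of the genes but not for all. Il1rn, Il1f9, Prok2 and Osm had most of their UMIs in Neutrophil-like cells, and Ccl6 and Ccl9 in Monocyte-like cells. Ccl4 had 73.0% of its Col1a1fspKO UMIs in T/NK cell-like cells, which are lymphoid. In the WT library the share was 41.7%, or 10 of 24 UMIs, of which 1 cell held 7. Myeloid progenitor-like cells there held 9 Ccl4 UMIs. Il1b, averaged over classes, was close to the level in B cell-like cells, and Cxcl2 was at the limit of counting. Together the 10 genes were 0.0426% of all UMIs in the Col1a1fspKO library and 0.0428% in the WT library.

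**Figure D1:**
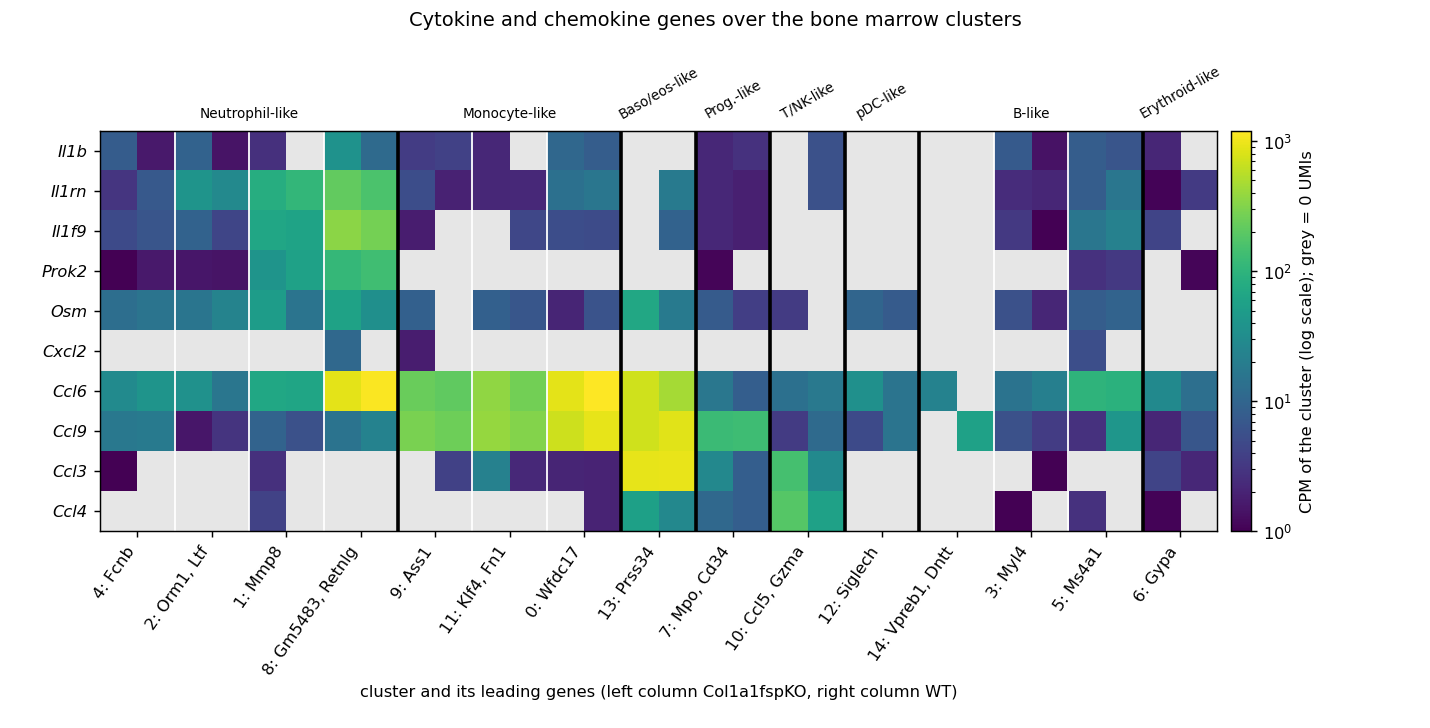
Level of each of the 10 genes (rows) in each of the 15 clusters (columns, labelled with leading genes), as UMIs of the gene per 1000000 UMIs of the cluster (CPM) on a log colour scale, with the Col1a1fspKO library on the left and the WT library on the right of each column. Grey marks 0 UMIs. Il1rn, Il1f9 and Prok2 are brightest in neutrophil cluster 8, Ccl6 in clusters 8, 0 and 13, Ccl9 in clusters 0 and 13, and Ccl3 in cluster 13.

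Of the members, 6 lie in 2 short stretches of the mouse genome (GRCm38). Ccl9 (chr11:83572919-83578636, minus strand) and Ccl6 (chr11:83587882-83593087, minus strand) are 9245 bases apart. Ccl3 (chr11:83647844-83649355, minus strand) and Ccl4 (chr11:83662584-83664683, plus strand) follow in the same cluster of chemokine genes, 13228 bases apart. Il1f9 (chr2:24186476-24193568, plus strand) and Il1rn (chr2:24336853-24351494, plus strand) belong to the IL-1 gene cluster and are 143284 bases apart. Il1b (chr2:129364570-129371139, minus strand), Prok2 (chr6:99711299-99726392, minus strand), Cxcl2 (chr5:90903871-90905938, plus strand) and Osm (chr11:4236420-4241026, plus strand) lie elsewhere. All 10 are protein-coding. Il1b, Prok2 and Ccl6 each overlap an annotated gene on the opposite strand, Il1bos, Gm26748 and E230016K23Rik. The longest run of letters shared by the transcripts of a neighbouring pair was 25 bases (Ccl6 and Ccl9).

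RefSeq promoter sequences (GRCm38.p6) were at hand for 8 members, all but Ccl4 and Osm. The 250 bases before the start are shown for the neighbours Ccl6 and Ccl9, which differed in neutrophil expression, and for Il1f9 and Prok2, which followed each other over the clusters. In Ccl6 the capitals mark a repeated 14-base run, and in the other genes any match to a searched motif.
Ccl6, chr11:83593088-83593337, minus strand: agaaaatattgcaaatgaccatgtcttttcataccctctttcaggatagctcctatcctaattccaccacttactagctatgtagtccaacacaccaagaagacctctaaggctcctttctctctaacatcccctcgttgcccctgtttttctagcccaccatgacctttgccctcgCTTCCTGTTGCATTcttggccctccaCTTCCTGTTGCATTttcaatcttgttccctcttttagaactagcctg
Ccl9, chr11:83578637-83578886, minus strand: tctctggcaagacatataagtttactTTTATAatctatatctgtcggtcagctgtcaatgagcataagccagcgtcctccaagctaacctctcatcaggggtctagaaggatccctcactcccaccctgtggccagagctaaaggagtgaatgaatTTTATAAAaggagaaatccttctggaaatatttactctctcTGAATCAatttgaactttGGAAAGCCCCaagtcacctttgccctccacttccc
Il1f9, chr2:24186226-24186475, plus strand: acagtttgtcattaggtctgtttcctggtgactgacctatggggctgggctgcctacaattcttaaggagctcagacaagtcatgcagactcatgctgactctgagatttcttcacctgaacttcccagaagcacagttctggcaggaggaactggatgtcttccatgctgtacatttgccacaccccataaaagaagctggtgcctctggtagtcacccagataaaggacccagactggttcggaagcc
Prok2, chr6:99726393-99726642, minus strand: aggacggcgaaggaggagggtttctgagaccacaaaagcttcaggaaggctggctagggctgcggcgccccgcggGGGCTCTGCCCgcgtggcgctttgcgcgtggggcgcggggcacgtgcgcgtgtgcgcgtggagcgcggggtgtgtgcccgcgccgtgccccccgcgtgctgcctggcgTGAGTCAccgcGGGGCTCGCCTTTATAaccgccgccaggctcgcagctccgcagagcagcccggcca
The motifs, searched on both strands, were a TATA box (TATAAA), NF-kB (GGG and CC with any 5 bases between), C/EBP (TTGCNNAA), AP-1 (TGANTCA) and PU.1 (GAGGAAG). They occurred in 12.4%, 45.8%, 9.56%, 6.75% and 10.6% of 32851 mouse promoters of the same length. Ccl9 and Prok2 each held TATA, NF-kB and AP-1 letters, and in Prok2 an NF-kB match ends beside the TATA match. Ccl6 and Il1f9 held none of the 5 motifs. The copies of CTTCCTGTTGCATT in Ccl6 began 73 and 47 bases before the start, and a repeat of that length or longer occurred in 3.30% of the promoters. The Cxcl2 promoter held 3 NF-kB matches, of which 2 overlap on opposite strands.

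Il1rn, the brake on IL-1 signalling, was a gene of late neutrophils. In the Col1a1fspKO library its level was 2.99 CPM in cluster 4, 38.9 in cluster 2, 83.9 in cluster 1 and 217 in cluster 8. In the WT library the same clusters had 7.27, 28.0, 109 and 160.4 CPM. The order from early to late clusters was thus the same in both libraries. Cluster 8 exceeded cluster 1 by 2.58-fold in the Col1a1fspKO library (1.78 to 3.75), whereas in the WT library the 1.47-fold gap (0.76 to 2.67) was within counting error. Neutrophil-like cells exceeded Monocyte-like cells 6.48-fold (3.91 to 11.4) in Col1a1fspKO and 4.22-fold (2.54 to 7.41) in WT. A UMI of Il1rn was found in 22.9% and 16.2% of Neutrophil-like cells, against 2.42% and 3.17% of B cell-like cells, which should lack it. Median depths were 3977 and 4631 UMIs in Neutrophil-like and 4325.5 and 5469 in B cell-like cells.

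Il1f9 showed a steeper form of the same pattern. Its Col1a1fspKO levels were 4.98 CPM in cluster 4, 9.34 in cluster 2, 66.3 in cluster 1 and 353 in cluster 8. The WT levels were 6.46, 4.42, 61.2 and 275 CPM. The earlier clusters 4 and 2 were close to the B cell-like level of 6.13 and 4.54 CPM. From cluster 1 to cluster 8 the level stepped up 5.32-fold (3.73 to 7.66) in Col1a1fspKO and 4.49-fold (2.53 to 7.87) in WT, and 65.9% and 60% of cluster 8 cells had a UMI. Neutrophil-like cells held 87.6% of the Col1a1fspKO and 78.8% of the WT UMIs of the gene. Although left out of the clustering, Il1f9 came out among the leading genes of cluster 8, which therefore describes its expression and gives no test of it.

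Il1b was scarce. The whole Col1a1fspKO library held 55 UMIs in 40 cells and the WT library 22 UMIs in 20 cells. Neutrophil-like cells had 9.78 and 1.58 CPM, Monocyte-like cells 6.61 and 5.16 CPM, and B cell-like cells 7.36 and 2.27 CPM. The Neutrophil-like level was 1.33 times the B cell-like level in Col1a1fspKO (0.65 to 2.89) and 0.70 times in WT (0.13 to 3.75), so over the whole class Il1b was within counting error of that background. The highest level was in cluster 8, with 36.7 CPM from 10 UMIs in Col1a1fspKO and 11.5 CPM from 1 UMI in WT. In the Col1a1fspKO library this was 3.93-fold (1.30 to 13.2) over cluster 2, and 9.09% of cluster 8 cells had a UMI, against 2.82% of B cell-like cells.

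Prok2 had the highest share of its UMIs in a single class. Of them, 96.9% in the Col1a1fspKO library and 95.7% in the WT library came from Neutrophil-like cells, and Monocyte-like cells had none in either library. The Neutrophil-like level was 15.3 times the limit set by 3 UMIs in the Monocyte-like class in Col1a1fspKO and 11.5 times in WT. The lower ends of the exact 95% intervals for the ratio of Neutrophil-like over Monocyte-like cells were 12.1 and 8.97. Cluster 4 had 0.996 and 1.62 CPM, cluster 2 had 1.56 and 1.47, cluster 1 had 39.3 and 57.4, and cluster 8 had 114 and 138. Clusters 4 and 2 were alike within counting error, and the gene appeared with cluster 1. The step from cluster 1 to cluster 8 was 2.90-fold (1.69 to 4.99) in Col1a1fspKO and 2.40-fold (1.12 to 4.82) in WT. B cell-like cells with a UMI made up 0.403% and 0.452%, against 27.3% and 28% in cluster 8.

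Osm was spread more evenly over the neutrophil clusters. Neutrophil-like cells held 67.9% of its Col1a1fspKO UMIs and 67.6% of its WT UMIs, and exceeded Monocyte-like cells 5.11-fold (2.70 to 10.7) and 3.92-fold (1.90 to 9.11). The Col1a1fspKO levels in clusters 4, 2, 1 and 8 were 12.9, 15.6, 50.1 and 58.8 CPM. The WT levels were 15.3, 23.6, 15.3 and 34.4 CPM. Here the libraries parted in cluster 1, where 37 Col1a1fspKO and 8 WT UMIs were counted, a 3.27-fold difference (1.5 to 8.14) that rests on 45 UMIs in all. The cells with a UMI were 30 of 202 (14.9%) and 7 of 141 (4.96%). Thinned to 2500 UMIs per cell they were 11.9% and 3.55%, and without the top cell of each library the ratio was 4.0 (1.66 to 11.6). Basophil/eosinophil-like cells also held Osm, with 5 UMIs in 9 Col1a1fspKO and 2 UMIs in 18 WT cells.

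**Figure D2:**
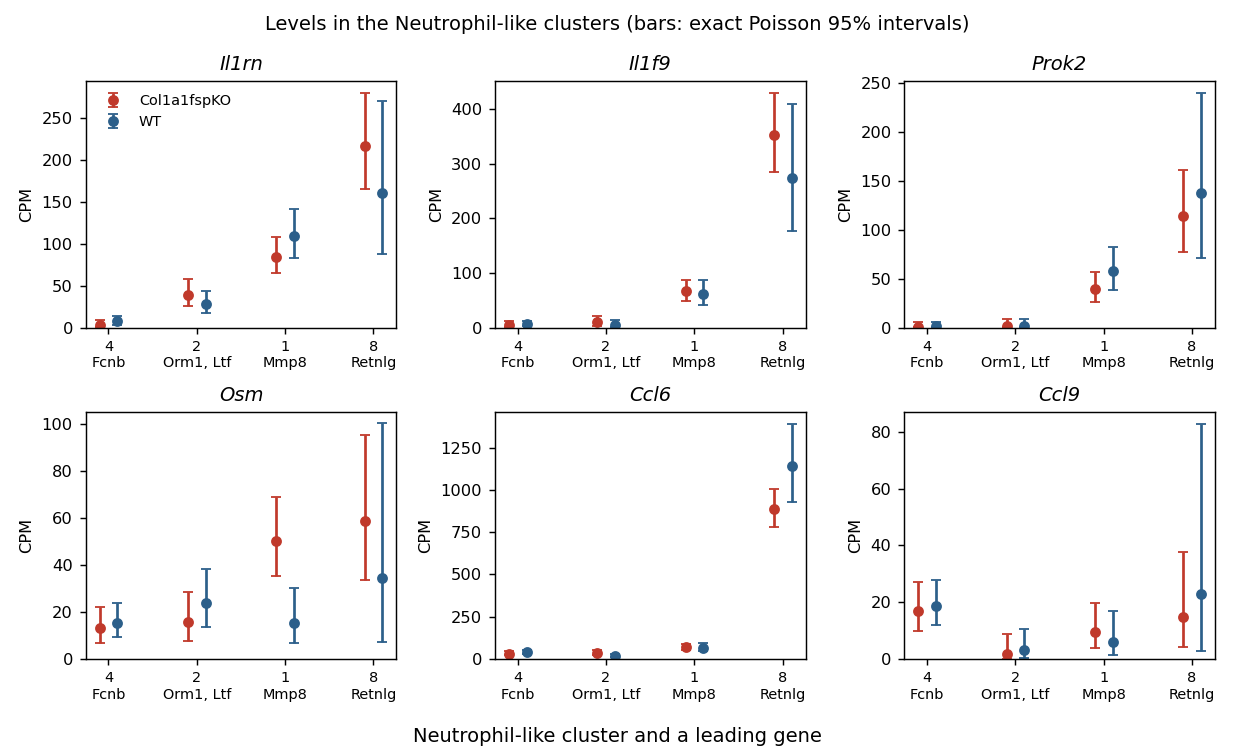
Level (CPM) of Il1rn, Il1f9, Prok2, Osm, Ccl6 and Ccl9 in the 4 neutrophil clusters, ordered from cluster 4 (Fcnb) through 2 (Orm1, Ltf) and 1 (Mmp8) to 8 (Retnlg), for each library, with exact Poisson 95% intervals on the counts. Il1rn, Il1f9, Prok2 and Ccl6 are highest in cluster 8 in both libraries (217 and 160.4 CPM for Il1rn), whereas Ccl9 stays at or below 22.9 CPM in all 4 clusters.

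Ccl6 was shared by 3 kinds of cell. The Monocyte-like class had 589.8 CPM in Col1a1fspKO and 718 in WT, and 85.4% and 87.7% of its cells had a UMI. Within it the mature cluster 0 (led by Wfdc17 and Clec4a3) had 905 and 1182 CPM, cluster 9 (led by Ass1) 238 and 215, and cluster 11 (led by Klf4 and Fn1) 370 and 267. Neutrophil cluster 8 reached the range of cluster 0, with 889 CPM in Col1a1fspKO and 1146 in WT, and Basophil/eosinophil-like cells had 715 and 461 CPM. The latter rest on 9 and 18 cells, and without the top cell of each library the levels were 381 and 239 CPM. The other 3 neutrophil clusters stayed between 16.2 and 67.7 CPM. The step from cluster 1 to cluster 8 was 13.1-fold (9.65 to 18.2) in Col1a1fspKO and 17.6-fold (11.8 to 26.8) in WT. A UMI of this abundant transcript was found in 9.27% and 10.4% of B cell-like cells, against 69.3% and 68% in cluster 8. B cell-like cluster 5 had 101 CPM in Col1a1fspKO and 92.9 in WT, and B cell-like cluster 3 had 14.8 and 21.2. The cluster 5 UMIs numbered 37 in 10 Col1a1fspKO cells and 29 in 7 WT cells. Whether free RNA set the level in B cell-like cells was not tested.

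Ccl9, the neighbour of Ccl6, shared its monocyte and basophil expression but not its neutrophil expression. Monocyte-like cells had 507 CPM in Col1a1fspKO and 606 in WT, and Basophil/eosinophil-like cells had 715 and 884 CPM. Myeloid progenitor-like cells followed with 126 and 133 CPM, with a UMI in 42.7% and 52.6% of them, whereas their Ccl6 level was 16.5 and 8.35 CPM. In cluster 8, Ccl9 was at 14.7 and 22.9 CPM, and the Neutrophil-like class as a whole had 0.0215 and 0.0196 times the Monocyte-like level. The corresponding ratio of Ccl6 was 0.22 and 0.11, or -2.18 and -3.23 on the log2 scale. It was -1.38 and -2.43 when the 20 most abundant genes were left out of the totals, and -3.77 and -4.24 without cluster 8. The pair could be seen in single cells as well. Among Monocyte-like cells with a Ccl6 UMI, 86.8% in Col1a1fspKO and 83.9% in WT also had Ccl9, but in cluster 8 only 1 of 61 and 2 of 17 such cells did. The summed level of 11 monocyte markers in cluster 8 was 88.2 CPM in Col1a1fspKO and 11.5 in WT, with 5 and 10 of them at 0, against 4550.4 and 4418 CPM in Monocyte-like cells.

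Ccl3 was concentrated in few cells. Basophil/eosinophil-like cells, led by Prss34 and Mcpt8, had 911 CPM in Col1a1fspKO and 939.8 in WT, in 7 of 9 and 15 of 18 cells. A positive cell held 2 to 20 UMIs in the Col1a1fspKO library and 1 to 16 in the WT library. This class was 0.688% and 1.54% of the cells, but held 42.8% and 82.3% of the Ccl3 UMIs. Per cell class the next levels were in T/NK cell-like cells (147 and 29.2 CPM) and Myeloid progenitor-like cells (27.6 and 8.35 CPM). Monocyte-like cells had only 6.11 and 2.58 CPM, and Neutrophil-like cells had 3 UMIs and none. In B cell-like cells Ccl3 was found in 1 of 221 WT cells and in 0 of 248 Col1a1fspKO cells, where 3 cells, the limit taken for a count of 0, would be 1.21% of cells with a UMI. Ccl3 was among the leading genes of its cluster despite being left out of the clustering.

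Ccl4 followed T/NK cell-like cells, led by Ccl5 and Gzma. They had 185 CPM in Col1a1fspKO and 58.3 in WT, and 15 of 58 and 4 of 32 cells held a UMI. Basophil/eosinophil-like cells had only 4 and 3 UMIs of Ccl4, although Ccl3 was high in them. The genes were thus neighbours with different leading classes. Within T/NK cell-like cells they went together, as Ccl4 was found in 61.5% of Col1a1fspKO cells with a Ccl3 UMI and in 15.6% of those without. The WT shares were 40% and 7.41%, of 5 and 27 cells. In the Col1a1fspKO library, 14 cells with UMIs of natural killer markers and none of T cell markers held 35 of the 43 Ccl3 UMIs and 28 of the 54 Ccl4 UMIs of the class. These Ccl3 UMIs were in 7 of the 14 cells and the Ccl4 UMIs in 3. Most cells with Ccl4, 12 of the 15, were among the 41 with UMIs of both marker sets, and held 26 UMIs.

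**Figure D3:**
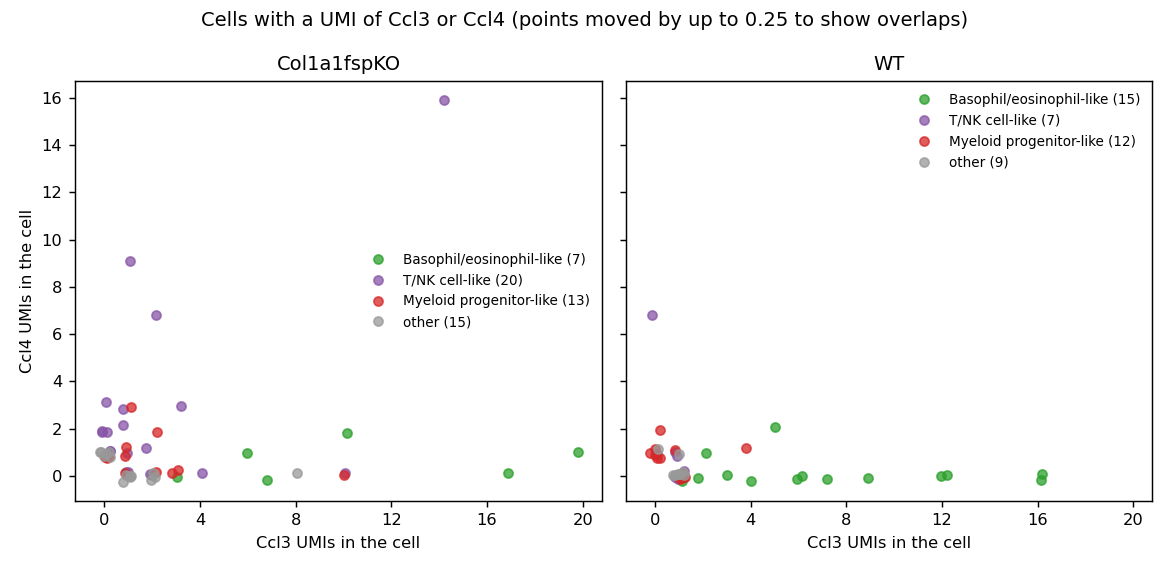
Ccl3 UMIs (x axis) and Ccl4 UMIs (y axis) in each cell with a UMI of either gene, by cell class and library, with points moved by up to 0.25 to show overlaps and the number of cells in the legend. Basophil/eosinophil-like cells lie along the Ccl3 axis at up to 20 UMIs, and T/NK cell-like cells include the cells with most Ccl4, up to 16 UMIs in the Col1a1fspKO library.

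In T/NK cell-like cells Ccl4 was past 1.5-fold upward in the Col1a1fspKO library, and Ccl3 had fewer than the 50 UMIs needed for that call. Ccl3 had 43 UMIs in 58 Col1a1fspKO cells and 5 in 32 WT cells, a ratio of 5.04 (2.0 to 16.3). For Ccl4 the 54 and 10 UMIs gave a ratio of 3.16 (1.60 to 6.97). A single Col1a1fspKO cell held 14 of the Ccl3 and 16 of the Ccl4 UMIs, and without the top cell of each library the ratios were 4.29 (1.51 to 16.8) and 7.41 (2.35 to 37.5). The make-up of the class was not equal, since cells with natural killer markers and no T cell marker numbered 14 in Col1a1fspKO and 5 in WT. The summed neutrophil markers in it were 3723 and 38724 CPM. The part of these in the result was not tested. In Myeloid progenitor-like cells Ccl3 had 25 and 9 UMIs (3.30-fold, 1.49 to 8.03), also under that minimum, whereas in Basophil/eosinophil-like cells it was at the same level within counting error (0.97-fold, 0.70 to 1.34).

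Cxcl2, the neutrophil attractant, was at the limit of the assay. The Col1a1fspKO library had 6 UMIs in 4 cells, or 0.69 CPM, of which 3 UMIs were in 2 cells of cluster 8. Of the rest, 1 UMI was in a Monocyte-like cell of cluster 9 and 2 were in a B cell-like cell. The gene was not listed in the WT library, so no ratio was formed.

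**Figure D4:**
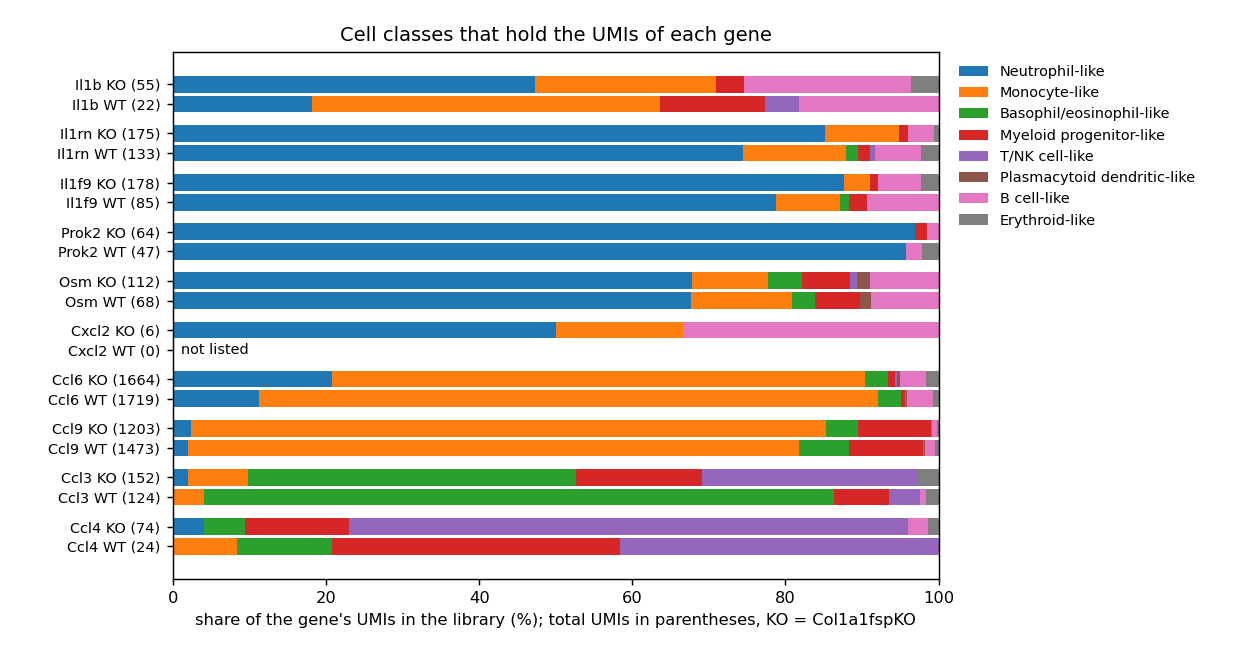
Share of each gene's UMIs (percent) that came from each cell class, as stacked bars for the Col1a1fspKO and WT libraries. Neutrophil-like cells hold 96.9% and 95.7% of the Prok2 UMIs, Monocyte-like cells 82.9% and 79.7% of the Ccl9 UMIs, and Basophil/eosinophil-like cells 42.8% and 82.3% of the Ccl3 UMIs.

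Over all cells, 4 members were higher in the Col1a1fspKO library by more than 1.5-fold. Il1b was at 6.36 CPM against 2.55 (2.49-fold, 1.5 to 4.29) and Il1f9 at 20.6 against 9.86 (2.09-fold, 1.60 to 2.74). Ccl4 was at 8.56 CPM against 2.78 (3.08-fold, 1.92 to 5.10), and Osm at 12.95 against 7.88 (1.64-fold, 1.2 to 2.25). Those with the 50 UMIs over both libraries that a call required numbered 9, and 4 of 9 were past the fold upward and 0 downward. Of all 9725 genes with as many UMIs, 3.0% were past it upward and 2.93% downward. The members were chosen with earlier results of these data known, so these shares describe them and give no test. The other members were Il1rn (20.2 and 15.4 CPM, 1.31-fold, 1.04 to 1.66), Prok2 (7.40 and 5.45, 1.36-fold, 0.92 to 2.02), Ccl3 (17.6 and 14.4, 1.22-fold, 0.96 to 1.56) and Ccl6 (192 and 199, 0.97-fold, 0.90 to 1.03). Ccl9 was lower, at 139 CPM against 171 (0.81-fold, 0.75 to 0.88). The call of Il1f9 rested on cluster 8, since its ratio was 1.37 without that cluster and 1.19 with equal cluster weights. Il1rn was at 0.99 without it and Prok2 at 0.96, whereas Il1b (2.18) and Osm (1.51) stayed past the fold. Ccl4 had 0 UMIs in cluster 8 in both libraries, so leaving that cluster out could not lower its ratio (3.14). With equal cluster weights the Ccl4 ratio was 2.76. The Il1b ratio was 3.24 (0.98 to 13.8) in B cell-like cells, taken above as background. It was 6.18 (2.14 to 24.4) in Neutrophil-like and 1.28 (0.52 to 3.27) in Monocyte-like cells, each class with under 50 UMIs. The median log2 ratio of the 9 members was 0.44, and that of all genes was -0.04.

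In Neutrophil-like cells 3 of 6 members with enough UMIs were past the fold upward and 0 downward, against 4.09% of 4963 genes upward and 6.95% downward. The members' choice with earlier results known limits this comparison in the same way. Il1f9 had 156 UMIs in the Col1a1fspKO library and 67 in the WT library, a ratio of 2.21 (1.65 to 2.99). Ccl6 was at 129.8 and 76.4 CPM (1.70-fold, 1.42 to 2.04), and Osm at 28.6 and 18.2 CPM (1.57-fold, 1.08 to 2.32). Il1rn (1.43-fold, 1.10 to 1.86) and Prok2 (1.31-fold, 0.88 to 1.97) stayed below the fold, as did Ccl9 (0.92-fold, 0.53 to 1.58). The number of cluster 8 cells moved with these values. With the 4 clusters weighted equally in both libraries, the ratio was 1.21 for Il1f9, 0.85 for Ccl6, 1.0 for Il1rn and 0.75 for Prok2. Without cluster 8 it was 1.43 for Il1f9, 1.13 for Ccl6, 1.08 for Il1rn and 0.96 for Prok2. Osm was at 1.62 with equal weights, and under the fold at 1.43 without cluster 8.

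Within cluster 8 itself Il1rn, Il1f9 and Prok2 did not differ between the libraries beyond counting error. The ratio of Il1f9 was 1.28 (0.81 to 2.10), of Il1rn 1.35 (0.75 to 2.62) and of Prok2 0.83 (0.41 to 1.77). Within cluster 1 they were 1.08 (0.68 to 1.75), 0.77 (0.53 to 1.12) and 0.68 (0.40 to 1.18). All of these intervals include 1, and they are wide enough to allow differences past 1.5-fold. They reach up to 2.62 for Il1rn in cluster 8 and down to 0.40 for Prok2 in cluster 1. Ccl6 in cluster 8 was lower in Col1a1fspKO, at 0.78 (0.61 to 0.99), but without the top cell of each library it was 0.85 (0.66 to 1.11). Among cells above the shared minimum of 2909 UMIs, the Neutrophil-like ratio of Il1f9 was 1.70, of Ccl6 1.2, of Il1rn 1.16 and of Prok2 0.93. Osm was at 1.48 there (0.996 to 2.20), also under the fold. A different number of cells of a stage and a different level per cell were therefore told apart here only as far as the clusters separate the stages.

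**Figure D5:**
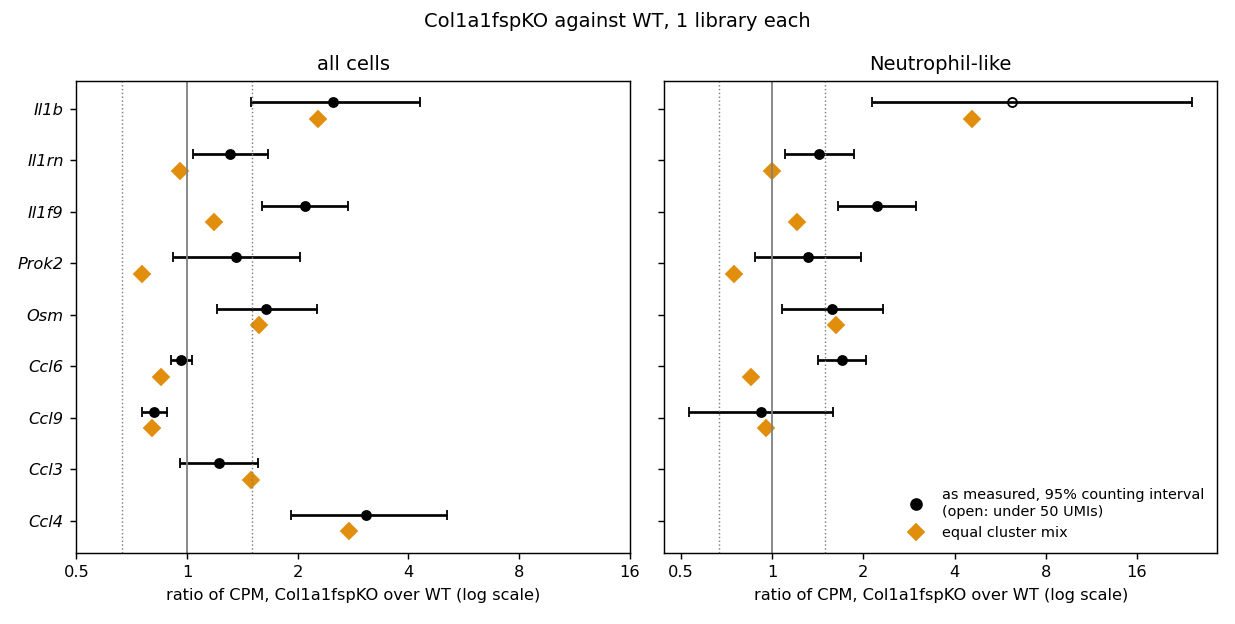
Ratio of the CPM level in the Col1a1fspKO library over the WT library (log axis) for each member with UMIs in both libraries, over all cells (left) and in Neutrophil-like cells (right). Black points are the ratios as measured with 95% counting intervals, open where both libraries together had under 50 UMIs, orange diamonds the ratios with all clusters given the same weight in both libraries, and dotted lines 1.5-fold. In Neutrophil-like cells the diamonds of Il1f9 (1.21), Il1rn (1.0), Prok2 (0.75) and Ccl6 (0.85) lie to the left of their points, and that of Osm (1.62) does not.

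In Monocyte-like cells the chemokines went the other way, by less than the fold. Ccl6 had 1159 UMIs in Col1a1fspKO and 1391 in WT (0.82-fold, 0.76 to 0.89), and Ccl9 had 997 and 1174 (0.84-fold, 0.77 to 0.91). Neither of the 2 members with enough UMIs was past the fold, against 3.42% of 5732 genes upward and 3.30% downward. The lower values came from cluster 0, with ratios of 0.77 (0.70 to 0.84) for Ccl6 and 0.76 (0.68 to 0.84) for Ccl9. In cluster 9 the ratios were 1.11 and 1.15. In cluster 11 they were 1.39 (1.09 to 1.77) for Ccl6 and 1.19 for Ccl9, but 1 Col1a1fspKO cell held 62 of the 166 Ccl6 UMIs there, and without the top cell of each library the Ccl6 ratio was 1.13 (0.85 to 1.51). With equal cluster weights Ccl6 and Ccl9 were both at 0.81 in the class.

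Receptors of these signals were measured in the same cells. Over all cells Cxcr2, the receptor of Cxcl2, had 281 UMIs in Col1a1fspKO and 169 in WT (1.66-fold, 1.37 to 2.02), and in Neutrophil-like cells 238 and 136 (1.66-fold, 1.34 to 2.07). Ccr1, the receptor of Ccl6 and Ccl9, was level at 488 and 476 UMIs, and the gp130 gene Il6st had 111 and 88. Of all 9725 genes with at least 50 UMIs, 3.0% were past 1.5-fold upward over all cells and 2.93% downward. Of 6 genes of IL-1 and IL-36 reception and the inflammasome, 0 were past it upward and 1 downward. That gene was Pycard, the adaptor of the inflammasome, with 933 and 1604 UMIs (0.58-fold, 0.53 to 0.63). In Neutrophil-like cells Pycard was at 0.66 and Casp1, the protease that cleaves pro-interleukin-1β, at 1.58.

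Other genes of the same field were counted from lists. Over all cells, 3.0% of 9725 genes were past the fold upward and 2.93% downward. In Neutrophil-like cells the shares were 4.09% of 4963 genes upward and 6.95% downward. Of 14 NF-kB genes and early targets, 1 was past the fold upward over all cells and 0 downward, namely Traf1, with 50 and 9 UMIs (5.54-fold, 2.70 to 12.8). Nfkbia, the inhibitor that NF-kB itself induces, had 1440 and 1548 UMIs (0.93-fold). Of 7 genes of this list with enough UMIs in Neutrophil-like cells, 0 were past the fold upward and 1 downward. The interval of the latter included 1 (0.65-fold, 0.41 to 1.04). Of 10 other cytokine and chemokine genes, 2 were higher, Cxcl10 with 61 and 10 UMIs (6.08-fold, 3.09 to 13.3) and Ccl5 with 3085 and 1160 (2.65-fold). Ccl5 is a gene of T and NK cells, and its UMIs in Neutrophil-like cells numbered 95 in Col1a1fspKO and 2 in WT, while in Monocyte-like cells they numbered 98 and 9. Of 8 genes of this list with enough UMIs in Neutrophil-like cells, 2 were past the fold upward and 0 downward. They were Ccl5 and Tnfsf14, the latter with 38 and 20 UMIs (1.81-fold, 1.03 to 3.28). Of 12 immediate early genes, which also respond to tissue dissociation, 2 were past the fold upward, Fos with 365 and 217 UMIs (1.68-fold) and Nr4a1 with 46 and 30 (1.53-fold, 0.94 to 2.51). In Neutrophil-like cells 3 of 10 of these were, Fos (3.19-fold), Junb (1.60-fold) and Dusp1 (2.25-fold). Their median log2 ratio there was 0.47, that of the members 0.58 and that of all genes -0.07. The part of these early genes in the members' values was not tested.

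The genes whose levels over clusters and libraries were most like each member are given by Pearson's r over 30 profiles, as a description. Il1f9 was closest to Retnlg (0.97) and Prok2 (0.96), and Prok2 to Gpr27 (0.97). Il1rn was closest to the gelatinase gene Mmp9 (0.95) and Scrg1 (0.95), Osm to the glucose transporter gene Slc2a3 (0.88) and the 5-lipoxygenase gene Alox5 (0.88), and Il1b, more weakly, to Stfa2l1 (0.73) and Cd300ld (0.73). Ccl6 was closest to Hacd4 (0.91), and Ccl9 to the myeloid transcription factor gene Cebpa (0.87). Ccl3 was closest to Csrp3 (0.90), Cd200r3 (0.89) and Ms4a2 (0.88), a chain of the high-affinity IgE receptor, and Ccl4 to Skap1 (0.94) and granzyme B (Gzmb, 0.90). The profiles share libraries and depth, and many of the 30 rest on few cells.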

How the data were processed

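The 10 genes and the related lists were chosen with earlier results of these data known. Per the labels, libraries were made with the 10x Genomics Chromium Single Cell 3' v2 kit. The deposited values were raw UMI counts, in a gene-by-cell table per genotype, as the authors left them after cell calling. The submitters' processing notes name Cell Ranger (version not given in the sources used here), Seurat 3.5.3 and mm10.

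The filters of 200 to 7000 genes and at most 10% mitochondrial counts removed 0 cells. A doublet caller marked 5 cells in each library, which were kept. Clusters were made in Seurat 5.3.0 from 27 principal components of 2000 variable genes at resolution 0.8, after 39 of these were left out (the members, related lists, Ly6 and sex-linked genes). Markers were fixed first, and the scoring rule was written after the clusters were seen. A cluster's name needed at least 3 detected markers.

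Counts were summed per class and library and divided by all UMIs of that class and multiplied by 1000000 (CPM). Intervals are exact Poisson (levels) or exact binomial (shares and ratios) at 95%, which take in counting error alone. Since each genotype was a single library, no p-value was possible. A gene was called past 1.5-fold when both libraries together held at least 50 UMIs. All members were named. List genes past that fold whose interval excluded 1 were also named, apart from 1 receptor list, as were some abundant list genes. The genes most like each member were taken from those with at least 100 UMIs by log2(CPM + 10). Nr4a1 was added after its value was seen. Scripts were tested on simulated counts. Strand is set by the kit's protocol, but how the counting treated overlapping genes is not given in the sources used here. A result on 1 receptor list is not reported here in full.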

Additional observations from a re-analysis of the deposited data

Results flagged for a closer look

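Ccl6 differed between the libraries in opposite directions in different cells, with counting intervals that did not include 1 on either side. It was higher in the Col1a1fspKO library in Neutrophil-like cells (1.70-fold), in Basophil/eosinophil-like cells, which are cluster 13 (1.55-fold), and in monocyte cluster 11 (1.39-fold). It was lower in Monocyte-like cells (0.82-fold), in monocyte cluster 0 (0.77-fold) and in neutrophil cluster 8 (0.78-fold). The difference between these ratios was not tested, because each genotype was 1 library. The values of Neutrophil-like cells rest on the number of cluster 8 cells, 88 against 25. In Basophil/eosinophil-like cells single cells held 26 of the 51 Col1a1fspKO and 25 of the 50 WT UMIs, and without them the ratio was 1.59 (0.88 to 2.89). Without the top cell of each library the intervals of clusters 8 (0.66 to 1.11) and 11 (0.85 to 1.51) included 1.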

How the results depend on the processing

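No paired analysis was possible because each genotype was 1 library, and for the same reason no replicate could be left out. The number of members past 1.5-fold in Neutrophil-like cells was 3, and became 1 above the shared minimum of 2909 UMIs, 0 without cluster 8 and 1 with equal cluster weights. Under equal weights the log2 ratio of Ccl6 in Neutrophil-like cells turned to -0.23. Leaving out cluster 8 was chosen after seeing the data, as were equal weights within a class. Equal weights over all cells had been planned. By construction these 2 settings remove or fix the share of cluster 8. Over all cells the count was 4 and ranged from 3 to 5, with Il1f9 lost (1.37 and 1.19) under those 2 settings, and in Monocyte-like cells it stayed at 0. Of 494 alternative values of single genes over 14 settings, 455 moved by less than their counting interval, 38 by more, and 1, of a gene called past 1.5-fold, changed direction. Among the 38 that moved, Il1rn and Prok2 came to 1 or below over all cells with equal weights (log2 -0.067 and -0.41), and Ccl3 was at -0.19 when thinned. The settings changed the clustering resolution (0.4 and 1.2), the principal components (15), the feature genes, the integration, the cell filters and doublets, the scaling and the depth (2500 UMIs per cell). A new clustering by resolution, components, feature genes or integration cannot change a value over all cells. Those values are among the 455 by construction, and the all-cell count of 4 could not move under these clustering settings. Depth limited Il1b in neutrophils (26 and 4 UMIs) and Cxcl2 (6 UMIs).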
